A study of Macaca mulatta with 30 samples.

Results

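Cerebral cortex and fibroblast RNA (12 of 30 arrays) was compared jointly with pancreas, testis and thymus RNA (18 arrays) on the rhesus macaque GeneChip. A gene was a member when the lower of its cortex and fibroblast means lay above the highest of the other 3 tissue means, or when both lay below the lowest of them. Of 14133 genes measured, 1179 were ordered the first way and 912 the second. A gene was called jointly higher or jointly lower when, in addition, each of the 6 contrasts of cortex and fibroblast with the other 3 tissues passed at an adjusted p under 0.05 (limma with a center term, Benjamini-Hochberg adjustment over all 52865 probesets). By this call 741 genes were jointly higher, 5.24% of those tested, and 442 were jointly lower, 3.13%. Over probesets, with or without a gene symbol, the calls were 1720 (3.25%) and 1783 (3.37%).

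The arrays were made at 3 centers (Oregon, Nebraska and Yerkes), each of which received 2 aliquots of every RNA, so that each tissue has 6 arrays. The groups were cerebral cortex, an immortalized fibroblast line, pancreas, testis and thymus of rhesus macaques, with no treatment. Ages, sexes and the number of animals are not given in the sources used here. Each tissue was 1 RNA, and its 6 arrays were technical aliquots, so a p-value measures how far labeling and hybridization vary, and not how far animals do. With the RNA as the unit, 2 RNAs against 3 allow 10 arrangements, and no one-sided p below 0.1 could be reached. The study's methods place the pancreas, testis and thymus RNA at Oregon, the fibroblast RNA at Nebraska and the cortex RNA at Yerkes, so tissue, animal and place of RNA extraction cannot be told apart in this comparison. In bulk RNA, fewer cells of a type and less RNA per cell cannot be told apart either.

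Cerebral cortex is built of neurons and glia, cells that extend long processes and depend on a steady supply of glucose, and it also holds blood vessels. A fibroblast line is a culture of connective tissue cells that secrete collagen and divide, and it holds no epithelium, blood vessels or blood cells. Pancreas, testis and thymus are organs that contain epithelial cells, in pancreas the exocrine cells among them, with vessels and resident leukocytes. Testis also holds germ cells, and thymus lymphoid cells.

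The tissue labels were checked against marker genes. The mean log2 signal over 8 neuron markers was 10.27 to 10.96 on the cortex arrays, 6.64 to 7.18 on the fibroblast arrays and at most 7.00 on the arrays of the other 3 tissues. Over 14 fibroblast and matrix markers it was 11.40 to 11.96 in fibroblast and 7.11 to 7.72 in cortex, below every array of pancreas, testis and thymus. Acinar markers marked pancreas and thymocyte markers marked thymus. In testis the Sertoli cell hormone AMH was at 12.28, and the germ cell genes DAZL and ZPBP were at 7.96 and 7.72, each above the other tissues. The sperm genes PRM1, ACR and ODF1 were at 6.35, 5.69 and 6.27 in testis, below their levels in cortex. Mean signal was higher on the Yerkes arrays, at 6.91, than on the Nebraska (6.36) and Oregon (6.33) arrays, and center was therefore a term of the fit behind the joint calls. The log2 signal of GAPDH on its 5' control probeset was below that on its 3' one by a mean of 1.81 ± 0.58 (SD, 6 arrays) for fibroblast RNA and 1.58 ± 0.49 for pancreas, against 0.82 ± 0.42 for cortex, 0.69 ± 0.29 for testis and 0.47 ± 0.36 for thymus. By this measure of RNA integrity cortex lay with testis and thymus, and fibroblast with pancreas. The paper found larger scaling factors and larger standardized errors (NUSE) on the pancreas arrays than on the others, and advised caution with them. The pancreas arrays also had the highest median signal, 6.41 against 6.21 to 6.31. Without them the rule asks for 4 contrasts in place of 6, so that 1397 genes were called higher and 1468 lower. These held 738 of the 741 genes called higher and 440 of the 442 called lower with pancreas, as a rule with fewer contrasts to pass nearly fixes.

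The size of a joint difference is given here as the gap, the log2 distance between the nearest of the pair and the nearest of the other 3 tissues. The median gap was 0.45 among the genes called higher and -0.35 among those called lower. A gap of at least 1 was reached by 108 genes called higher, 0.764% of those tested, and by 33 called lower, 0.233%. The smallest gap called was 0.14 in the higher and -0.13 in the lower direction, and the largest that was ordered but not called was 0.30 and -0.52. When the simple mean of cortex and fibroblast was set against the mean of the other 3 tissues, 5284 genes (37.4%) were higher and 5155 (36.5%) lower, and the joint calls were 14.0% and 8.57% of these. Most of the genes that passed the simple contrast were thus carried by some of the 5 tissues and did not separate the pair from the rest. The same joint call for the other 9 pairs of tissues gave 295 to 1135 genes higher and 241 to 1727 lower, so cortex and fibroblast stood at rank 6 and rank 7 among 10 pairs.

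**Figure D1:**
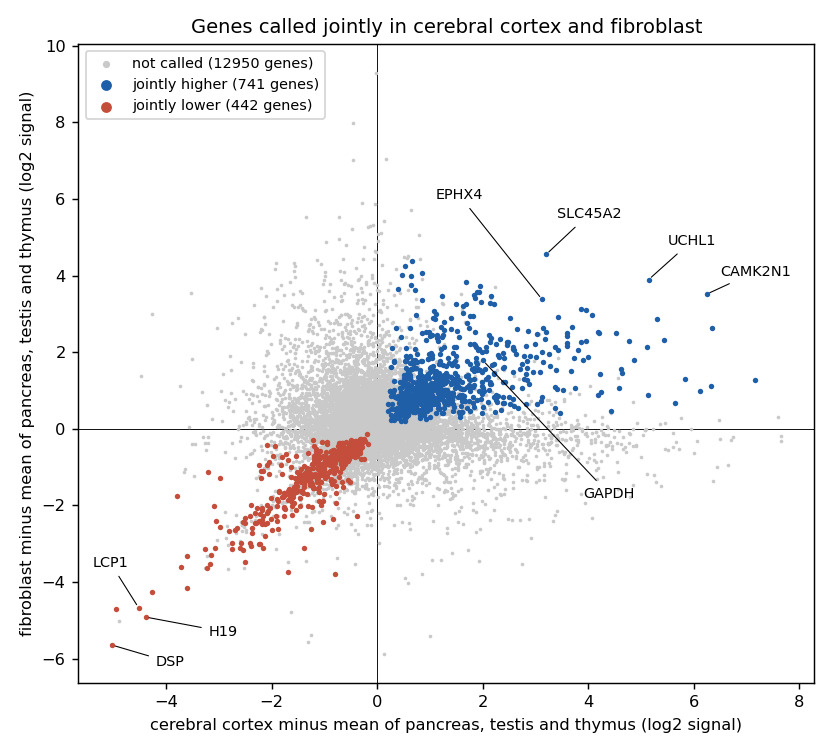
Log2 signal of cerebral cortex (x axis) and fibroblast (y axis), each minus the mean of pancreas, testis and thymus, for 14133 genes, with 1 point per gene. The 741 genes called jointly higher (blue) lie at the upper right and the 442 called jointly lower (red) at the lower left, and genes high in only cortex or only fibroblast spread along the axes in gray.

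The order of the means held at each of the 3 centers separately for 702 of the 741 genes called higher and for 412 of the 442 called lower. Within every center, no array of the pair overlapped with an array of the other 3 tissues for 604 and 286 of these genes. Over all genes tested, called or not, 4.34% showed such a separation in the higher direction and 2.05% in the lower direction. With the 30 arrays pooled, 249 and 69 of the called genes did not overlap, and the share over all genes was not taken for this count. These counts describe genes already called by the order of their means and are no separate support. The difference between the pair and the other tissues also varied with center, since its interaction with center passed at an adjusted p under 0.05 (limma F test) for 20 of the 40 genes named below and for 10.8% of all probesets, but among the 40 it differed by at most 0.71 between centers. The pair itself was not uniform. Among genes called higher, cortex exceeded fibroblast in 379 and fibroblast exceeded cortex in 362, and their absolute difference had a median of 0.40. Among genes called lower the median difference within the pair was 0.17, against 0.46 over all genes, and it was within 1 for 420 of 442. The nearest of the other tissues was testis for 318 of the genes called higher, and it was pancreas for 209 of those called lower. The genes called higher had a median mean signal of 7.91, and those called lower 7.15, against 7.11 over all genes.

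The 20 genes with the largest gaps above the other tissues were led by UCHL1, EPHX4, LGI1 and SLC45A2. The gaps of the 20 ran from 1.85 to 3.13, with standard errors of 0.07 to 0.13, and the largest adjusted p of the 20 was 1.64e-15 (limma). All 20 separated without overlap at each center, as 4.34% of all genes did, which their choice by the largest gaps nearly fixes. UCHL1, an abundant neuronal deubiquitinase, was at 12.42, 12.48 and 12.97 (lowest, median and highest of 6 arrays, log2 signal) in cortex and at 11.13, 11.30 and 11.70 in fibroblast. It was at 7.68, 8.23 and 8.57 in testis, at 7.12, 7.23 and 7.44 in thymus and at 6.58, 6.77 and 7.42 in pancreas. Thus every array of cortex and fibroblast was above every array of the other tissues. The gap of UCHL1 over testis was 3.13 (SE 0.08), or 8.78-fold, and both of its other probesets were called higher as well, with gaps of 2.83 and 0.78.

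CAMK2N1, an inhibitor of the calcium/calmodulin-dependent kinase CaMKII, was the gene with the widest range among these 20. Its signal was 12.73, 12.99 and 13.37 in cortex, 9.99, 10.29 and 10.58 in fibroblast and 7.70, 7.81 and 8.30 in pancreas (lowest, median and highest of 6 arrays). In testis it was 6.72 to 7.35 and in thymus 5.02 to 5.90. The 2 members of the pair did not overlap with each other, and fibroblast exceeded pancreas by 2.36 (SE 0.07). GAP43, a membrane protein of growth cones, had the same arrangement. It was at 10.63, 10.82 and 11.00 in cortex, at 7.41, 7.77 and 7.90 in fibroblast and at 5.52, 5.68 and 5.97 in testis, the next tissue, with a gap of 1.97 (SE 0.10). Cortex was therefore far above fibroblast for these genes, and fibroblast was in turn above the 3 organs.

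Cortex and fibroblast were closer to each other for LGI1, BRINP1 and NSG1 than for CAMK2N1 and GAP43. LGI1, a secreted protein of synapses, averaged 8.78 in cortex and 7.93 in fibroblast and at most 4.97 in the other tissues, a gap of 2.96 (SE 0.10). Its lowest fibroblast array was at 7.71 and its highest pancreas array at 5.60. BRINP1, a gene of postmitotic neurons, had a gap of 2.23 (SE 0.07), and NSG1, an endosomal protein of neurons, had a gap of 1.86 (SE 0.07) with fibroblast, at 9.95, slightly above cortex, at 9.63. TMEFF2, a transmembrane protein with follistatin-like domains, was at 9.85 in cortex and 8.74 in fibroblast, and TMEM132D was at 8.39 and 8.34. In pancreas, testis and thymus these last 2 genes lay between 5.40 and 6.02.

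RASGRF2, an exchange factor for Ras, was at 9.68 in cortex, 8.65 in fibroblast and at most 6.16 elsewhere. PDE4B, a phosphodiesterase that degrades cAMP, was at 8.97, 9.03 and 9.26 in cortex and at 9.04, 9.55 and 9.75 in fibroblast, and thymus was next at 6.88, 7.00 and 7.43. Its gap of 1.98 (SE 0.08) was measured from cortex, the lower of the pair. MCTP1, a calcium-binding membrane protein, had a gap of 2.14, SEPTIN11, a filament-forming septin, 2.03, and FMN2, a formin that nucleates actin, 2.03. CDH13, a cadherin without a cytoplasmic domain, had a gap of 1.86, PRICKLE2, a planar polarity protein, 1.89, and ETV1, an ETS transcription factor, 1.85. For each of these 6 genes cortex was above fibroblast.

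EPHX4 and OPN3 differed little within the pair. EPHX4, an epoxide hydrolase, was at 7.69, 7.78 and 7.99 in cortex and at 7.61, 8.10 and 8.47 in fibroblast, and no array of the other tissues exceeded 5.20. The gap was 3.08 (SE 0.11), or 8.45-fold. OPN3, a non-visual opsin, averaged 7.59 in both members of the pair and at most 5.53 in the others. TCEAL3 differed more within the pair, at 9.80 in cortex and 9.07 in fibroblast against at most 6.85.

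SLC45A2, a transporter of melanosomes, was at 10.68, 10.96 and 11.16 in cortex and at 12.04, 12.21 and 12.68 in fibroblast on its brightest probeset, with testis next at 7.59, 8.04 and 8.35. Its other 2 probesets were not called, so its gap of 2.92 (SE 0.10) rests on 1 probeset. TMEFF2 and RASGRF2 likewise had 1 further probeset each that was not called. Of the 20 genes, 14 had further probesets, 20 in all, and 13 of these were called higher and none lower. The gaps on these 13 ran from 0.46 to 2.83. For 7 genes 1 of them was more than 1.5 times smaller than on the brightest probeset, as with GAP43 at 0.46 against 1.97, ETV1 at 0.46 against 1.85 and CAMK2N1 at 0.87 against 2.36. Over all 741 genes called higher, 213 of 691 further probesets (30.8%) carried the same call and 1 the opposite call.

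**Figure D2:**
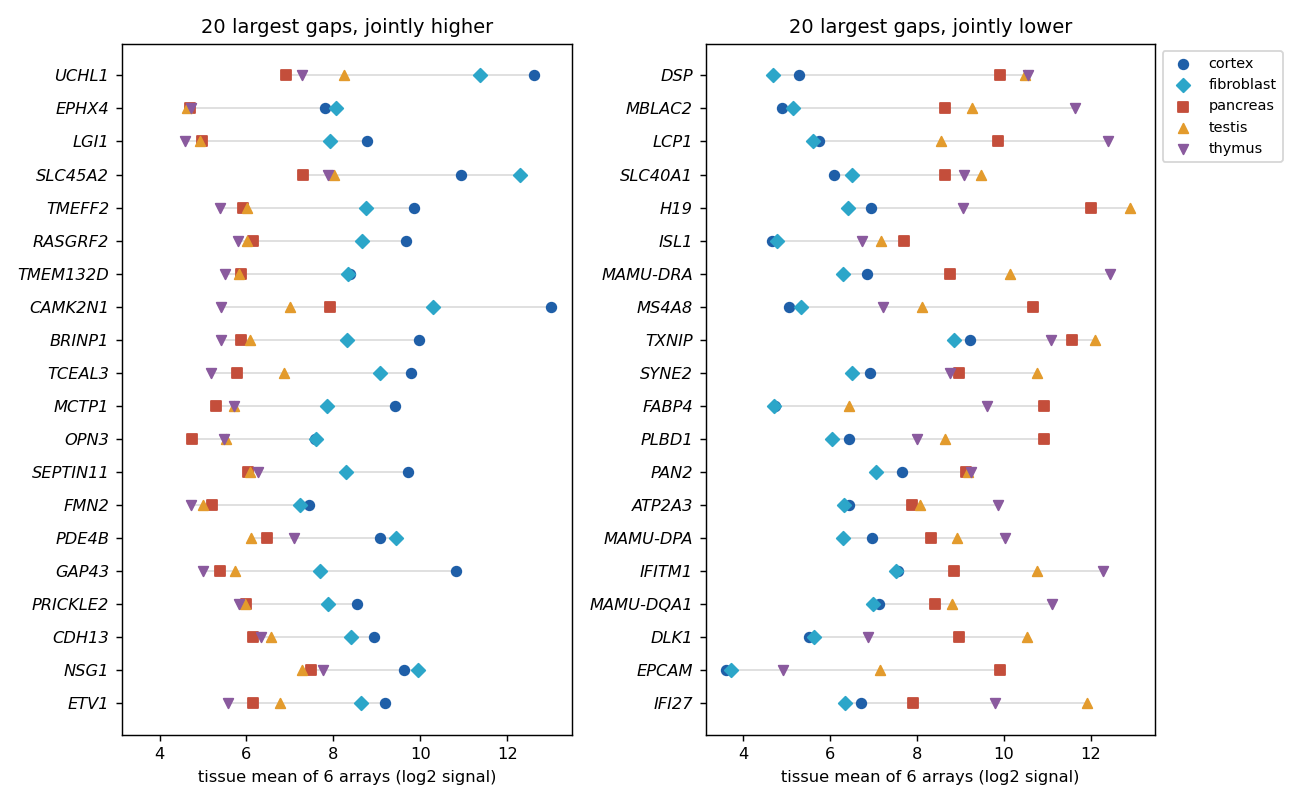
Tissue means of 6 arrays (x axis, log2 signal) of the 20 genes with the largest gaps called jointly higher (left) and of the 20 called jointly lower (right), in order of the gap. In the left panel cortex and fibroblast lie to the right of the other 3 tissues for every gene, and in the right panel to the left.

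The 20 genes with the largest gaps below the other tissues included DSP and EPCAM of epithelia, LCP1 of leukocytes and 3 class II histocompatibility genes. Their gaps ran from 1.19 to 4.62 in size, with standard errors of 0.06 to 0.15, and the largest adjusted p was 2.46e-08 (limma). All 20 separated at each center, as 2.05% of all genes did, which their choice by the largest gaps nearly fixes. MAMU-DQA1 alone overlapped between the groups when the 30 arrays were pooled. DSP, which encodes desmoplakin and anchors intermediate filaments to desmosomes, had the largest gap in either direction. It was at 5.11, 5.25 and 5.67 in cortex, at 4.16, 4.69 and 5.28 in fibroblast and at 9.83, 9.93 and 10.02 in pancreas (lowest, median and highest of 6 arrays). Testis and thymus were higher still, at 10.15 to 10.80 and 10.41 to 10.69. The gap from cortex to pancreas was -4.62 (SE 0.10), a 24.6-fold difference. The 3 organs lay within 1 log2 unit of each other and far above both members of the pair. EPCAM, an adhesion molecule of epithelia, was graded in contrast. It was at 9.70 to 10.10 in pancreas, 7.05 to 7.41 in testis and 4.79 to 5.07 in thymus, and the highest arrays of cortex and fibroblast were at 4.62 and 4.36, with a gap of -1.21 (SE 0.15).

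LCP1, the actin-bundling plastin of leukocytes, was at 5.57, 5.64 and 6.04 in cortex and at 5.11, 5.55 and 6.15 in fibroblast. Testis was next at 8.25, 8.50 and 8.88, pancreas was at 9.76, 9.80 and 10.08, and thymus at 12.24, 12.29 and 12.66. The gap was -2.81 (SE 0.07), and the further probeset of LCP1 was called lower as well. The class II histocompatibility genes MAMU-DRA, MAMU-DPA and MAMU-DQA1, which present peptides to helper T cells, had gaps of -1.93, -1.36 and -1.28. The 12 arrays of the pair held MAMU-DRA at 5.87 to 7.30, and it was at 8.70 to 8.86 in pancreas, 9.88 to 10.53 in testis and 12.22 to 12.71 in thymus. All 3 of these genes took the order pancreas, testis and thymus from low to high. The interferon-inducible genes IFITM1 and IFI27 had gaps of -1.29 and -1.19, again measured from pancreas.

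TXNIP, which binds thioredoxin and restrains glucose uptake, was at 8.82, 9.29 and 9.54 in cortex and at 8.71, 8.73 and 9.18 in fibroblast. Thymus was next at 10.93, 11.01 and 11.29, and testis was highest at 11.93, 12.03 and 12.36. Its gap was -1.86 (SE 0.07), or 3.64-fold, and all 4 of its further probesets were called lower, with gaps of -1.63 to -2.18. FABP4, a fatty acid carrier of adipocytes and capillaries, was at most 5.10 on the arrays of the pair and at 5.99, 6.43 and 6.71 in testis, the nearest tissue, with pancreas at 10.94 on average. SLC40A1, the iron exporter ferroportin, had a gap of -2.14 (SE 0.08). H19, an imprinted non-coding RNA of fetal growth, was at 12.02 in pancreas, 12.91 in testis and 9.07 in thymus on average, against 6.94 in cortex and 6.42 in fibroblast. DLK1, an imprinted membrane protein, was at 8.96, 10.54 and 6.87 against 5.52 and 5.64. Both of these imprinted genes were highest in testis and lowest of the 3 organs in thymus.

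The remaining genes of the lower 20 had varied functions. ISL1, a LIM homeodomain factor, was at 4.66 in cortex and 4.78 in fibroblast and at 6.75 to 7.71 on average in the other tissues. SYNE2, a nuclear envelope protein, had a gap of -1.85, PLBD1, a phospholipase-like protein, -1.58, PAN2, a subunit of a poly(A) nuclease, -1.47, and ATP2A3, a calcium pump of the endoplasmic reticulum, -1.45. For MBLAC2, 1 of 4 further probesets was called lower, with a gap of -0.22 against -3.49 for the brightest. On 2 of the rest cortex was the highest of the 5 tissues, at 7.79 and 6.80, so the MBLAC2 probesets differed in direction for cortex. For MS4A8 neither of the 2 further probesets was called. Of the 20 genes, 11 had further probesets, 23 in all, and 18 of these were called lower and none higher. The size of the gap depended on the probeset for many of them, since 11 of the 18, from 7 genes, had a gap more than 1.5 times smaller than the brightest. H19 had -0.42 and -0.84 against -2.13, FABP4 -0.41 against -1.71, SYNE2 -0.35 to -0.73 against -1.85 and ATP2A3 -0.34 and -0.41 against -1.45.

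**Figure D3:**
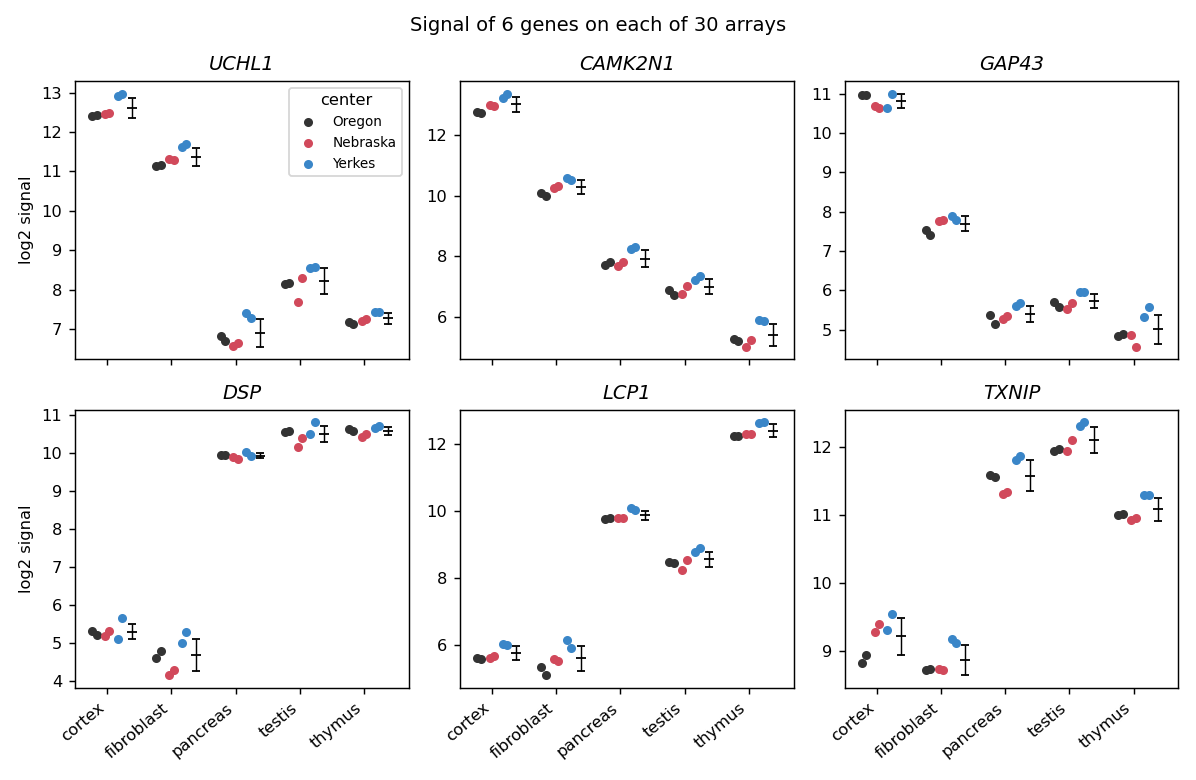
Every array's log2 signal (y axis) for 6 genes, with tissues along the x axis and centers in color, and with the mean and SD of 6 arrays to the right of each group. UCHL1, CAMK2N1 and GAP43 are above the other tissues on every cortex and fibroblast array, DSP, LCP1 and TXNIP are below on every one, and the Yerkes arrays tend to lie above those of the other centers within a tissue.

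Among the gene lists examined, that of glycolysis and glucose uptake had the largest share of members called higher. Of 16 genes measured, 10 were called higher (62.5%) and none lower, against 5.24% and 3.13% over all genes, and the median difference between the means of the pair and of the other 3 tissues was 1.35, against -0.01 over all genes. Uptake was represented by the glucose transporters SLC2A1, with a gap of 1.17 (SE 0.09), and SLC2A3, with 0.74 (SE 0.09). SLC2A1 was at 7.93, 8.02 and 8.38 in cortex, at 8.21, 8.45 and 8.79 in fibroblast and at 6.65, 6.80 and 7.37 in thymus, the next tissue. HK1, the hexokinase that phosphorylates glucose, had the largest gap of the list. It was at 10.63, 10.85 and 11.25 in cortex, at 10.33, 10.50 and 10.99 in fibroblast and at 8.96, 9.24 and 9.66 in thymus, a gap of 1.32 (SE 0.06). Testis and pancreas were lower, at 8.16 and 6.75 on average. No further probeset of HK1 was called, so its gap rests on the brightest alone.

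The later steps were also represented. GPI had a gap of 0.30, the phosphofructokinase genes PFKP and PFKL had gaps of 1.01 and 0.49, the muscle aldolase ALDOA 1.01, and TPI1 0.38. GAPDH had a gap of 0.84 (SE 0.07) and PKM, the pyruvate kinase, 0.84 (SE 0.17). GAPDH was at 13.67, 13.82 and 14.20 in cortex and at 13.42, 13.68 and 13.96 in fibroblast, and thymus reached 12.66, 12.81 and 13.09. For all 10 genes called, thymus was the highest of the other 3 tissues, and for 8 of 10 pancreas was the lowest. Fibroblast exceeded cortex for 6 of them and cortex exceeded fibroblast for 4. In 9 of 10, no array of the pair overlapped with the others at any center, and the exception was TPI1. Such a separation was seen in 4.34% of all genes, called or not. A gap of at least 1 was reached by 4 of the 10, HK1, SLC2A1, ALDOA and PFKP. A check list of 4 housekeeping genes, of which GAPDH is also in the glycolysis list, was higher in the pair as well. Its median difference between the pair and the 3 organs was 1.00, and 3 of its 4 genes were higher in the simple contrast, against 37.4% of all genes. The mean over the 4 was 9.23 to 9.75 on the pancreas arrays and 11.22 to 12.32 on those of the other 4 tissues. Without the pancreas arrays, which leaves fewer contrasts to pass, 10 glycolysis genes were called higher. Thymus was the nearest tissue for all 10 genes called with pancreas, so leaving out pancreas could hardly remove a call. The part of the low pancreas level in the median difference was not tested.

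Not every member of the pathway separated. ENO1, an enolase, was ordered but not called, with a gap of 0.11 (SE 0.06). LDHA, which makes lactate, was at 10.76 in cortex and 11.55 in fibroblast and reached 11.46 in thymus. ALDOC and ENO2 were high in 1 member of the pair, ALDOC at 12.47 in cortex and 7.68 in fibroblast and ENO2 at 7.81 and 11.50. HK2, the hexokinase of muscle, was highest in testis at 9.11. Of 8 genes called that had further probesets, 4 had at least 1 further probeset called higher, and 7 of 18 further probesets were called in all. Those of HK1, SLC2A1, GPI and TPI1 were not called. On 1 of HK1 thymus, at 7.14, was above cortex (6.84) and fibroblast (7.03), and on another the order held with a gap of 0.09. On 1 of GPI testis, at 11.32, was above cortex (8.43) and fibroblast (9.99). GAPDH depended on the position of the probeset, since a 3' probeset gave the gap above but the 5' control probeset was not called, with fibroblast at 11.86 and thymus at 12.36. The 3' minus 5' difference of GAPDH was larger in fibroblast than in thymus, as given above, and its part in the GAPDH result was not tested.

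**Figure D4:**
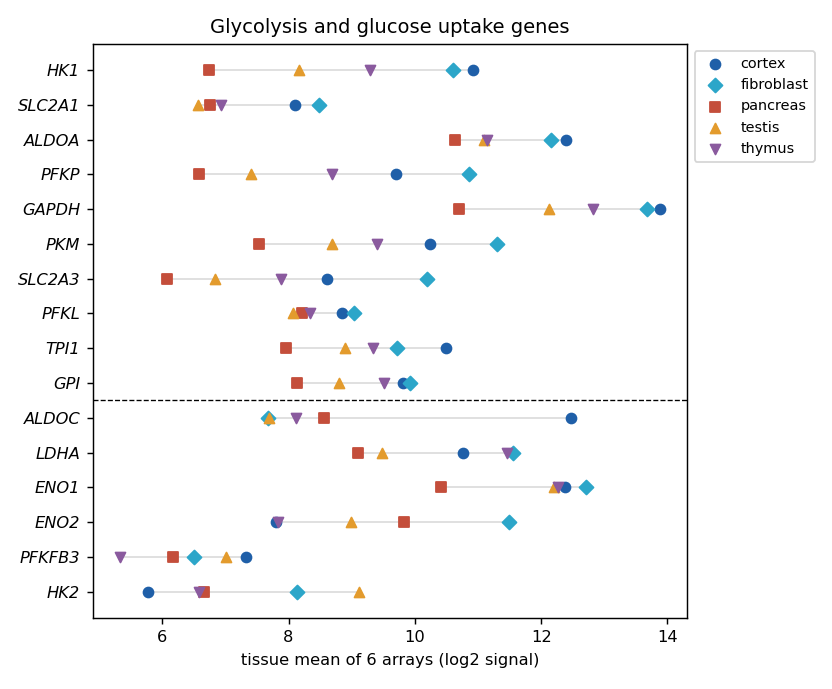
Tissue means of 6 arrays (x axis, log2 signal) for the 16 genes of glycolysis and glucose uptake measured. Above the dashed line are the 10 genes called jointly higher, with cortex and fibroblast to the right of the other tissues and thymus nearest to them, and below it are the 6 that were not called.

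Of 13 kinase and calcium signaling genes 5 were called higher (38.5%, against 5.24% over all genes). CAMK2D, a CaMKII subunit, had a gap of 0.96 (SE 0.06) and was at 9.46 to 10.15 on the arrays of the pair and at most 8.86 on the others. PRKCA, protein kinase C alpha, had a gap of 0.93, ATP2B1, a calcium pump of the plasma membrane, 0.73, CAMK2G 0.51 and PPP3CB, a calcineurin subunit, 0.21. Further probesets of CAMK2D were called as well, with gaps of 0.60 and 0.37, and 1 of CAMK2G, with 0.48. No further probeset of PRKCA, ATP2B1 or PPP3CB was called. On 1 of ATP2B1 fibroblast was at 7.97 and testis at 8.40, and on 1 of PPP3CB cortex, at 6.79, was the lowest of the 5 tissues. Annexins and S100 proteins of this list were high in fibroblast and not in cortex on their brightest probesets, as with S100A6 at 12.85 and 8.03, while a further probeset of ANXA2 was called higher with a gap of 0.66. Of 14 cell adhesion genes 4 were called higher, namely CDH13, THY1 with a gap of 0.99 (SE 0.06), CADM3 with 0.55 and ALCAM with 0.27. The further probeset of CDH13 was called as well, with a gap of 1.90. For ALCAM 1 further probeset was called, with 0.24, and the rest were not. Those of THY1 and CADM3 were not called, and on that of THY1 fibroblast was at 8.10 and pancreas at 8.09. THY1, a surface glycoprotein of neurons and fibroblasts, was at 12.40 to 12.95 in cortex, 9.22 to 9.93 in fibroblast and at most 8.77 on the other arrays. It was the only gene of the fibroblast marker list that was called.

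Axon guidance genes were mostly not shared. The share called higher over all genes, to set beside the counts in this paragraph, was 5.24%. Of 20 measured, 3 were called higher, the secreted ligands SLIT2 and SEMA3A and the Slit receptor ROBO2, with gaps of 1.64, 0.64 and 0.64. SLIT2 was at 8.09 to 8.64 in cortex, 9.92 to 10.49 in fibroblast and 6.46 to 7.26 in pancreas. ROBO1, a related receptor, was at 7.28 in cortex, 8.88 in fibroblast and 9.04 in testis and was not called. Of 9 genes of microtubules and growth cones, GAP43 and STMN2 were called, the second with a gap of 0.44 (SE 0.11). TUBB3, the neuronal beta tubulin, was not called on its brightest probeset, with fibroblast at 7.54 and pancreas at 7.65, but it was called on 2 of its 3 further probesets, with gaps of 2.34 and 2.38. For 8 of these 9 the simple contrast was higher, while DPYSL3, at 13.27 in cortex and 5.44 in fibroblast, was carried by cortex alone. Of 16 proteoglycan and matrix genes SDC3 and SPOCK1 were called, with gaps of 0.71 and 0.70, and the further probeset of SDC3 was not called. None of 13 genes of the actin and tropomyosin cytoskeleton was called in either direction on its brightest probeset, where the nearest was TPM1 with a gap of 0.05 (SE 0.07). Of 34 further probesets of these genes 3 were called higher, 2 of the tropomyosin gene TPM2, with gaps of 2.26 and 1.81, and 1 of TPM1, with 0.21. The brightest probeset of TPM2 was at 6.38 in cortex and 11.35 in fibroblast. Growth factor signaling gave SPRY2 and SPRY4, feedback inhibitors of receptor kinases, with gaps of 0.75 and 0.36 among 14 genes. A further probeset of SPRY2 was not called. On it cortex was at 11.27, while fibroblast, at 4.96, was below pancreas (5.68), testis (5.34) and thymus (4.97). BDNF, a neurotrophin, was not called on its brightest probeset, but a further one was called higher with a gap of 2.86 (SE 0.12), at 7.49 in cortex, 8.93 in fibroblast and at most 4.62 in the other tissues. FOS, with a gap of 0.53, was called among 10 immediate early genes, HSPH1, with 0.28, among 10 stress protein genes, and NR1H4, with 0.59, among 11 nuclear receptor and steroid genes. No further probeset of HSPH1 or NR1H4 was called.

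Neuron and glia markers show how far the shared pattern went. SYT1 and STMN2 were called among 8 neuron markers and SLC1A3, a glutamate transporter of astrocytes, among 8 glia markers. The share called higher over all genes was 5.24%. On the brightest probeset of SLC1A3 the gap was 0.24, but on its further probeset cortex was at 11.78, fibroblast at 8.61 and the 3 organs at most at 5.98, a gap of 2.63 (SE 0.06). SYT1, the calcium sensor of synaptic vesicles, was at 12.66 in cortex and 6.79 in fibroblast, 0.48 (SE 0.08) above testis, and none of its 3 further probesets was called. NRGN, SLC17A7, VSNL1, GFAP and MBP were at 10.08 or more in cortex and at 6.60 or less in fibroblast, and none was called.

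Leukocyte genes had the largest number of calls in the lower direction among the lists of cell types. Of 12 measured, 7 were called lower (58.3%, against 3.13% over all genes) and none higher, with a median difference between the pair and the 3 organs of -1.82, against -0.01 over all genes. Besides LCP1 they were RAC2, a small GTPase of blood cells, with a gap of -0.89, the phosphatase PTPN6 with -0.55, ARHGAP25 with -0.44, the chemokine receptor CXCR4 with -0.33, the common leukocyte antigen PTPRC with -0.23 and the cytokine receptor chain IL2RG with -0.22. PTPRC was at 5.98 in cortex and 5.74 in fibroblast and ranged from 6.21 in pancreas through 8.10 in testis to 11.90 in thymus. Its call on this probeset thus rested on a small distance to pancreas. Further probesets of PTPRC were called lower with gaps of -0.55 and -0.71, and another was not called. The further probeset of IL2RG was called lower with -0.62, and that of RAC2 was not called. The mean over the 12 genes was 6.51 to 7.34 on the cortex arrays and 6.37 to 7.06 on those of fibroblast. It was 7.11 to 7.83 in pancreas, 7.31 to 7.93 in testis and 10.24 to 10.80 in thymus. Pancreas was thus the nearest of the 3 organs to the pair on this list as a whole. The ranges of pancreas and of testis both overlapped with that of cortex. These ranges pool the centers, and mean signal was higher on the Yerkes arrays. ITGB2 was at 9.56 in fibroblast and 8.35 in thymus and was not called.

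Of 6 thymocyte markers CD8A, CD8B, PTCRA and DNTT were called lower, with gaps of -0.25 to -0.42, and their large differences were those to thymus. The share called lower over all genes was 3.13%. Of 9 genes of class II and antigen presentation 3 were called lower, MAMU-DRA, the invariant chain CD74 with a gap of -0.92 (SE 0.12) and MAMU-DMA with -0.71. CIITA, the class II transactivator, was at 6.73 in cortex, 6.53 in fibroblast and 6.33 in testis and was not called. JCHAIN was called among 10 B and plasma cell genes, with a gap of -0.54. For all 10 of these genes, and for all 9 of the antigen presentation list, the simple contrast was lower, as it was for 36.5% of all genes.

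Of 17 genes of epithelial adhesion and keratins, 6 were called lower (35.3%, against 3.13% over all genes) and none higher. The median difference was -0.53. KRT19 had a gap of -0.93, KRT8 -0.89, the splicing regulator ESRP2 -0.47, the tight junction genes CLDN4 and OCLN -0.33 and -0.23, and EPCAM -1.21. KRT8 was at 5.94 to 6.89 in cortex, 5.83 to 6.77 in fibroblast and 6.61 to 7.71 in thymus, the nearest tissue. KRT18, its usual partner, went the other way for cortex, which at 9.62 was the highest of the 5 tissues. CDH1, the epithelial cadherin, was at 6.44 in pancreas and at 5.64 to 5.77 on average in the other 4 tissues and was not called. CLDN7 and RAB25 were likewise high in pancreas, at 8.56 and 7.56, and in testis and thymus they were near the level of the pair.

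Of 13 endothelial genes 3 were called lower. The shares over all genes, to set beside the counts in this paragraph, were 3.13% lower and 5.24% higher. VWF, the von Willebrand factor, was at 6.34 to 7.18 in cortex and 6.01 to 7.01 in fibroblast, against 7.03 to 7.83 in thymus, with a gap of -0.75. TIE1 had a gap of -0.61 and PECAM1 of -0.28. CLDN5, a claudin of brain vessels, was highest in cortex at 7.87 and lowest in fibroblast at 6.39. Among 15 interferon response genes MX2 and BST2 were called lower, with gaps of -0.43 and -0.16, and IFIT2 was called higher with 0.48. DDIT4 was the one gene called on its brightest probeset among 10 of the hypoxia response, and it was lower by -0.37. No gene was called in either direction among 5 of red blood cells, 11 of the cell cycle, 7 acinar markers and 11 testis markers. On a further probeset but not on the brightest, KDM3A of the hypoxia list, IRF7 and OAS2 of the interferon list, the leukocyte gene IKZF1 and the thymocyte marker TCF7 were called lower, with gaps of -0.20 to -0.48, and the retinoic acid receptor RARB was called higher with 0.64. Cell cycle genes divided the pair, with a mean over the 11 genes of 5.90 to 6.58 in cortex and 8.82 to 9.37 in fibroblast.

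**Figure D5:**
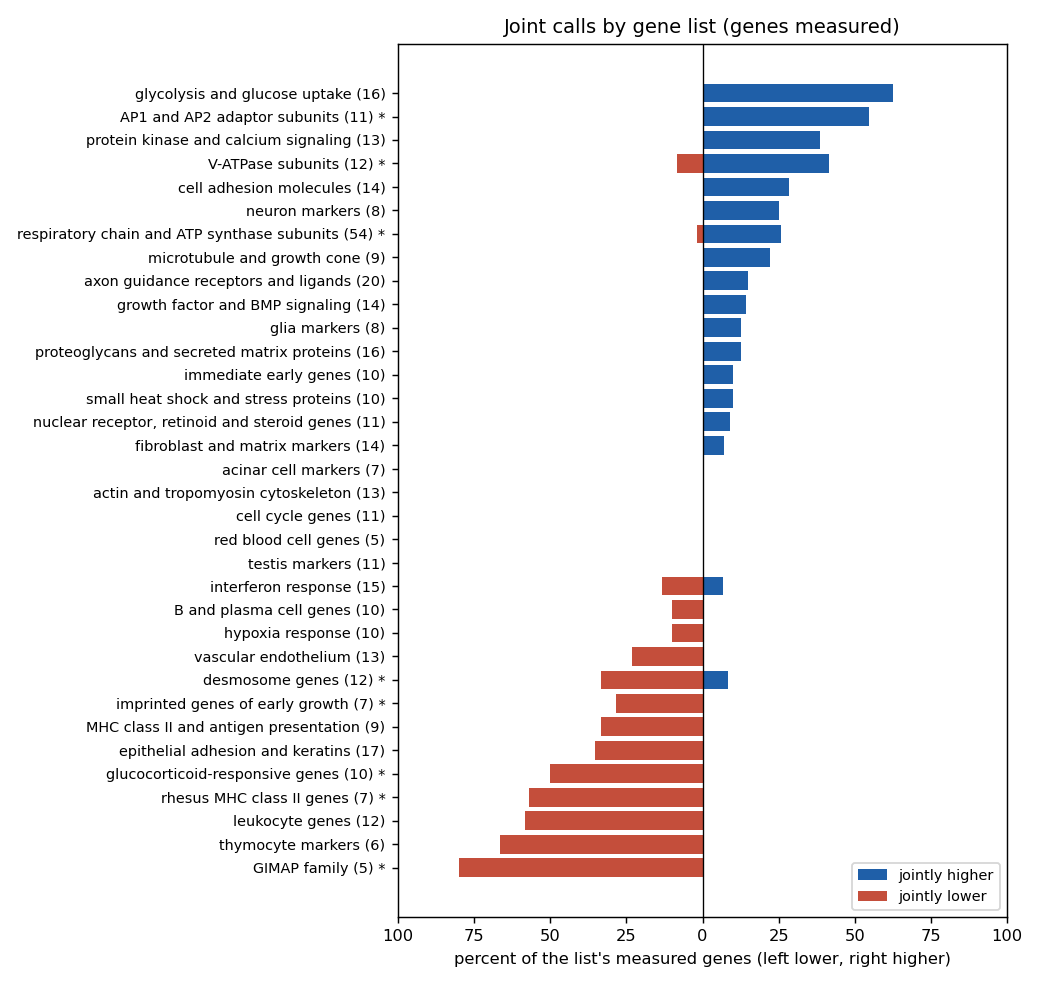
Percent of the measured genes of each list with at least 5 genes measured that were called jointly higher (blue, to the right) or jointly lower (red, to the left) in cortex and fibroblast, with the number of genes measured in parentheses and an asterisk on lists chosen after values had been seen. Glycolysis has the largest percentage to the right, 62.5, and leukocyte genes, thymocyte markers and the GIMAP family lie at the other end of the lists drawn. The C1q subunits, of which all 3 were called lower, have too few genes to be drawn.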

How the data were processed

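RNA of 5 rhesus macaque tissues was hybridized in 2 aliquots at each of 3 centers. The deposited values are log2 signals per probeset. According to the study's methods, the authors corrected background with MAS 5.0, quantile normalized the arrays of each center separately and summarized all 30 arrays by RMA (version not given in the sources used here), so levels can shift between centers. Of 52865 probesets, 24969 had 1 gene symbol in the platform annotation, 361 had several and 27535 had none. A gene was represented by its probeset of highest mean signal. Levels were not compared between genes. Tissue and center were fitted to all 30 arrays with limma 3.58.1 in R 4.3.3. Named genes are the 20 largest gaps per direction, without LOC symbols, and members of gene lists. The members and lists were chosen with earlier results of these data known. On simulated data, 99 of 100 joint changes of 1 on the log2 scale were recovered, and 0 of 52665 unchanged probesets were called. The unchanged probesets were simulated with no tissue effect and with independent noise. The simulation therefore does not give the rate of false calls where tissues or centers differ, as in the real data. Alternatives were quantile normalization of all arrays, the center term, a replicate block, a signal filter, arrays or tissues left out, single centers, an intersection-union p, a minimum gap and the mean over probesets.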

Additional observations from a re-analysis of the deposited data

Results flagged for a closer look

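Within a tissue, 1 of 6 arrays stood apart, after subtraction of the center means, in 12 of 200 combinations of the 40 genes named above and the 5 tissues. Chance gives about 1 in 20. The value is the distance of the extreme array to its neighbor as a share of the range of the 6. It was 0.667 for UCHL1 in testis, 0.63 for EPHX4 in pancreas, 0.661 for EPHX4 in testis, 0.648 for TMEFF2 in testis, 0.631 for PDE4B in pancreas and 0.654 for GAP43 in pancreas. It was 0.713 for PRICKLE2 in testis, 0.694 for ETV1 in fibroblast, 0.795 for FABP4 in testis, 0.653 for MAMU-DPA in fibroblast, 0.632 for MAMU-DPA in testis and 0.784 for MAMU-DQA1 in testis. All 40 genes kept their call when each array was left out in turn, which their choice by the largest gaps nearly fixes.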

How the results depend on the processing

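The calls of the 40 named genes did not change in any alternative in which the gene was tested (34 were among the probesets of above-median mean signal). These genes were chosen for the largest gaps in these same data, at least 1.19 in size. A minimum gap of 1 could therefore remove none, and leaving out a tissue or an array could hardly do so. Their unchanged calls are thus no independent support. Without a center term the joint calls fell to 924 probesets higher and 518 lower (400 and 155 genes), and the simple contrast to 3131 genes lower. Without the pancreas arrays 3915 and 5835 probesets (1397 and 1468 genes) were called, with 4 contrasts in place of 6. The alternatives without testis or thymus were chosen after seeing the data. Without the testis arrays 3007 and 3224 probesets (1270 and 803 genes) were called, and without the thymus arrays 3147 probesets and 929 genes were called lower. Lower calls were 1098 probesets and 270 genes on the Nebraska arrays alone, 1179 and 270 on the Yerkes arrays alone, 1169 probesets where those of below-median mean signal were dropped and 1078 with a single intersection-union p. With a gap of at least 1, 261 and 107 probesets (108 and 33 genes) remained. Quantile normalization of all 30 arrays gave 627 genes higher and 529 lower, of which 551 and 346 were shared with the calls above. Leaving out each array in turn gave 716 to 750 genes higher and 423 to 459 lower, 1664 to 1763 and 1704 to 1775 probesets, and 5215 to 5300 and 5013 to 5239 genes in the simple contrast. With a gap of at least 1, glycolysis kept 4 of its 10 calls, leukocyte genes 1 of 7 and epithelial genes 1 of 6, and without a center term these numbers were 7, 3 and 3.

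A replicate block, with center and aliquot number together as 6 blocks, gave 732 genes higher and 435 lower. Same-numbered aliquots deviated together (correlation over 0.1) in 0 of 10 tissue pairs at Oregon, 0 at Nebraska and 3 at Yerkes, so the numbers did not pair the samples. The block changed no call of a named gene. The number of arrays limits the precision for labeling and hybridization only. All were aliquots of 1 RNA per tissue, so more arrays would not show how far animals differ.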

Other observations

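Further gene families were described after their values had been seen, and they are given without a test of the family. Of 11 subunits of the clathrin adaptors AP1 and AP2, which sort membrane proteins into vesicles, 6 were called jointly higher in cortex and fibroblast (54.5%, against 5.24% over all genes) and none lower on the brightest probesets. AP2S1 had a gap of 1.26 (SE 0.08), AP1S1 of 1.09, AP2M1 of 0.63, AP1G1 of 0.49, AP2A2 of 0.45 and AP1B1 of 0.20. None of the 4 further probesets of AP1G1 was called, with differences between the pair and the 3 organs of -0.11 to -0.27, and a further probeset of AP1G2 was called lower with a gap of -0.29. AP2S1 was at 9.74 to 10.40 in cortex, 10.28 to 11.10 in fibroblast and at most 9.19 on the other arrays. Of 12 subunits of the vacuolar proton pump, 5 were called higher, led by ATP6V0B with 1.20 and ATP6V1H with 0.74, and ATP6V0A4 was called lower with -0.28. The second probeset of ATP6V0B was not called, with testis at 9.26 above cortex at 8.88. Of 54 subunits of the respiratory chain and ATP synthase, 14 were called higher, led by ATP5MC1 with 1.03, and ATP5MC2 was called lower. This number fell to 4 after quantile normalization of all 30 arrays and was 33 without the thymus arrays.

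In the lower direction, in which 3.13% of all genes were called, all 3 subunits of complement C1q, made by macrophages and microglia, were called, with gaps of -0.21 to -0.32, as were 4 of 5 GIMAP genes of lymphocytes and 4 of 7 rhesus class II genes. Of 12 desmosome genes, DSC2, with a gap of -0.94, JUP, with -0.54, and PERP, with -0.34, were called lower with DSP, and PKP4, at 0.42, was called higher. The desmosomal cadherins DSG1, DSG2 and DSG3 were not called on their brightest probesets, but 1 of 3 further probesets of DSG2 was called lower, with a gap of -0.33 and pancreas at 7.81. Of 10 genes known to respond to glucocorticoids, 5 were called lower, namely TXNIP, FOXO1 with -1.13 (SE 0.10), TSC22D3 with -0.55, DDIT4 and FKBP5 with -0.28, while SGK1 and CEBPD were highest in fibroblast at 10.12 and 10.79. Of 7 imprinted genes H19 and DLK1 were called, and MEST and PEG3 were at 8.98 and 10.57 in cortex and at 4.55 and 5.20 in fibroblast.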
